A study of Arabidopsis thaliana with 16 samples.

Results

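Sensor NLR and TIR genes encode the intracellular receptors with which plant cells detect pathogen proteins. A list of 52 Arabidopsis loci was examined, holding CC-NBS-LRR, TIR-NBS-LRR, TIR-NBS and TIR-only genes, without ZAR1, the SNC1 cluster and the helper receptors. The 50 loci with at least 50 reads summed over the 16 libraries were kept, of 25444 genes listed in the files. These are 31 TIR-NBS-LRR genes, 9 CC-NBS-LRR genes and 10 genes with a TIR domain and no LRR. The classes come from the list, and the RefSeq notes name no LRR for RPP13, LOV1, RFL1 and CHS3 and no TIR domain for CHS3. The kept locus with fewest reads was AT1G17615 with 63, and the dropped ones were RLM1 with 16 reads and AT5G41540 with 1. All 50 passed the low-count filter, with 19312 genes tested in all.

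RNA came from inflorescences sampled together with juvenile leaves, from wild-type (WT) Columbia-0 plants and from zed1-D plants, in which ZED1, a gene for a pseudokinase, has a dominant mutant allele. Plants grew at 18 °C with 16 h of light and 8 h of dark until bolting, were moved to 28 °C, and were sampled after 0, 3, 12 and 48 h. Each of the 8 groups of genotype and hour holds 2 libraries, R1 and R2. The labels name no line or clone beyond zed1-D, give no clock time and do not say whether R1 and R2 are separate plants, pools or repeated libraries, so p-values measure the spread between these libraries, which may be technical. Hours at 28 °C and time of day cannot be told apart at 3 and 12 h.

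The R1 libraries hold 4.74 to 5.86 M counted reads and the R2 libraries 10.35 to 11.39 M, so depth moves with the replicate number. Same-numbered libraries deviated together, so values with the replicate number as a block are given where they change a call. ZED1 itself had 3.99 to 16.0 CPM (counts scaled to library size with TMM factors) and its log2 difference between genotypes was -0.14 to 0.49 across hours. It did not pass at any hour, and with the block it passed at 12 h (edgeR adjusted p = 0.0209), with 6.60 and 16.0 CPM in zed1-D against 6.04 and 10.05 in WT. These counts do not separate the mutant from the normal transcript. Of the tissue markers, all 5 floral and all 4 leaf genes had reads in both genotypes, and 1 of 3 root genes did, with EXPA7 and RSL4 at 0. At 0 h the summed leaf markers were 33390 and 30250 CPM in zed1-D and 38095 and 32030 in WT. They were lower in zed1-D at 3 h (31807 and 30130 CPM against 43175 and 38089) at 12 h (28408 and 25091 against 34612 and 29818) and at 48 h (24981 and 25345 against 34211 and 25702). The summed pollen markers were lower in zed1-D at 0 h (5.43 and 5.66 CPM against 9.32 and 9.32), higher at 3 h (11.8 and 8.09 against 5.05 and 5.69) and 12 h (16.3 and 17.3 against 3.23 and 2.96), and lower at 48 h (14.6 and 13.4 against 26.4 and 20.7). The summed tapetum markers were higher in zed1-D at 3 h (12.4 and 11.2 CPM against 7.81 and 7.64) and lower at 12 h (7.89 and 9.46 against 10.8 and 13.2) and 48 h (7.02 and 5.23 against 11.8 and 12.2). The floral sums were lower in zed1-D at 0 h (38.3 and 46.0 CPM against 52.8 and 64.7) and 48 h (46.1 and 60.4 against 64.3 and 83.5), and higher at 3 h (48.7 and 55.1 against 35.6 and 47.4) and 12 h (49.7 and 66.6 against 39.9 and 44.2). Their part in the results on receptor genes was not tested. In such whole-tissue samples, fewer cells of a type and less RNA per cell cannot be told apart.

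NLR receptors carry a nucleotide-binding domain and leucine-rich repeats (LRR), and sense pathogen effectors directly or through the host proteins that effectors modify. Those with an N-terminal TIR domain act as enzymes on NAD+ once they assemble, and pass their signal through EDS1 and its partners to helper NLRs, while many with a coiled-coil (CC) domain form membrane channels. Truncated proteins with a TIR domain alone, or a TIR and a nucleotide-binding domain, can also signal. Immune output of many receptors is known to weaken in warm conditions, and too much receptor transcript can cause autoimmunity.

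At 18 °C the receptor genes covered a wide range of levels in WT. Per kilobase of the listed gene length, AT1G72930, a TIR-only gene, stood highest with 169.98 and 199.37 CPM per kb, above every other member. RLM3, a TIR-NBS gene known for resistance to Leptosphaeria and Botrytis fungi, followed with 48.3 ± 7.58 CPM per kb (SD, n = 2). AT1G58602, a CC-NBS-LRR gene, had 38.7 ± 9.87 CPM per kb and RPP8, a CC-NBS-LRR gene of downy mildew resistance, had 37.7 ± 8.85. RLM3 lay above both in R1 and in R2, and no test between genes was made. At the other end stood AT1G17615 with 0.0816 CPM per kb, AT4G14370 with 0.294 ± 0.252, AT5G41550 with 0.376 ± 0.0460, RPS2 with 0.426 ± 0.00581 and AT3G04220 with 0.651 ± 0.00887. RPS2, the CC-NBS-LRR guard of RIN4, overlaps a gene on the opposite strand over 92.9% of its exon bases, and the strand setting of the counts is not given in the sources used here. The 18 members that later differed between genotypes had a median of 3.92 CPM per kb in WT at 0 h and the 32 others a median of 6.38. Of the 25 members with the lower WT levels 11 were among those 18, and of the 25 with the higher levels 7.

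The first question of the design is whether zed1-D changed receptor transcripts, and at which hour. At 0 h, at 18 °C, 0 of 50 members differed between genotypes (edgeR adjusted p under 0.05, Benjamini-Hochberg over all 19312 genes, two-sided). At an unadjusted p under 0.05 there was 1, and DESeq2 called 0. The background is 0.0414% of all genes called higher in zed1-D and 0.00518% lower. The members' median log2 difference was 0.03. Leaving out AT1G17615, which had 1 read in WT and 3 in zed1-D, the largest difference was in AT1G57630, a TIR-only gene, which had 5.43 and 8.36 CPM in zed1-D against 2.05 and 3.80 in WT. Its log2 difference was 1.204 ± 0.457 (SE; edgeR adjusted p = 1, and 0.00445 with the replicate block, the 1 member called there against a background of 1.17% higher and 1.1% lower).

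After the move to 28 °C, every member that passed was higher in zed1-D. At 3 h 9 of 50 were higher, against 2.83% of all genes. At 12 h 16 were higher, against 7.87%, and at 48 h 17 were higher, against 8.32%. Leaving out single libraries of the compared groups gave 5 to 6, 10 to 14 and 11 to 15, with 5 at 3 h without WT R1, zed1-D R1 or zed1-D R2, 10 at 12 h without WT R1 or WT R2, and 11 at 48 h without WT R1 or WT R2. With the replicate block 25, 28 and 31 members were higher, against 9.07%, 19.8% and 22.1% of all genes. At these 3 hours 0 members were lower with edgeR, with or without the block, or with DESeq2. Among all genes 0.233%, 1.82% and 6.24% were lower, or 8.04%, 15.3% and 23.5% with the block. The members' median log2 difference was 0.43 at 3 h, 0.50 at 12 h and 0.51 at 48 h. Summed over the 50 members, receptor transcripts made up 2444 and 3042 CPM in zed1-D at 12 h against 1698 and 1992 in WT.

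**Figure D1:**
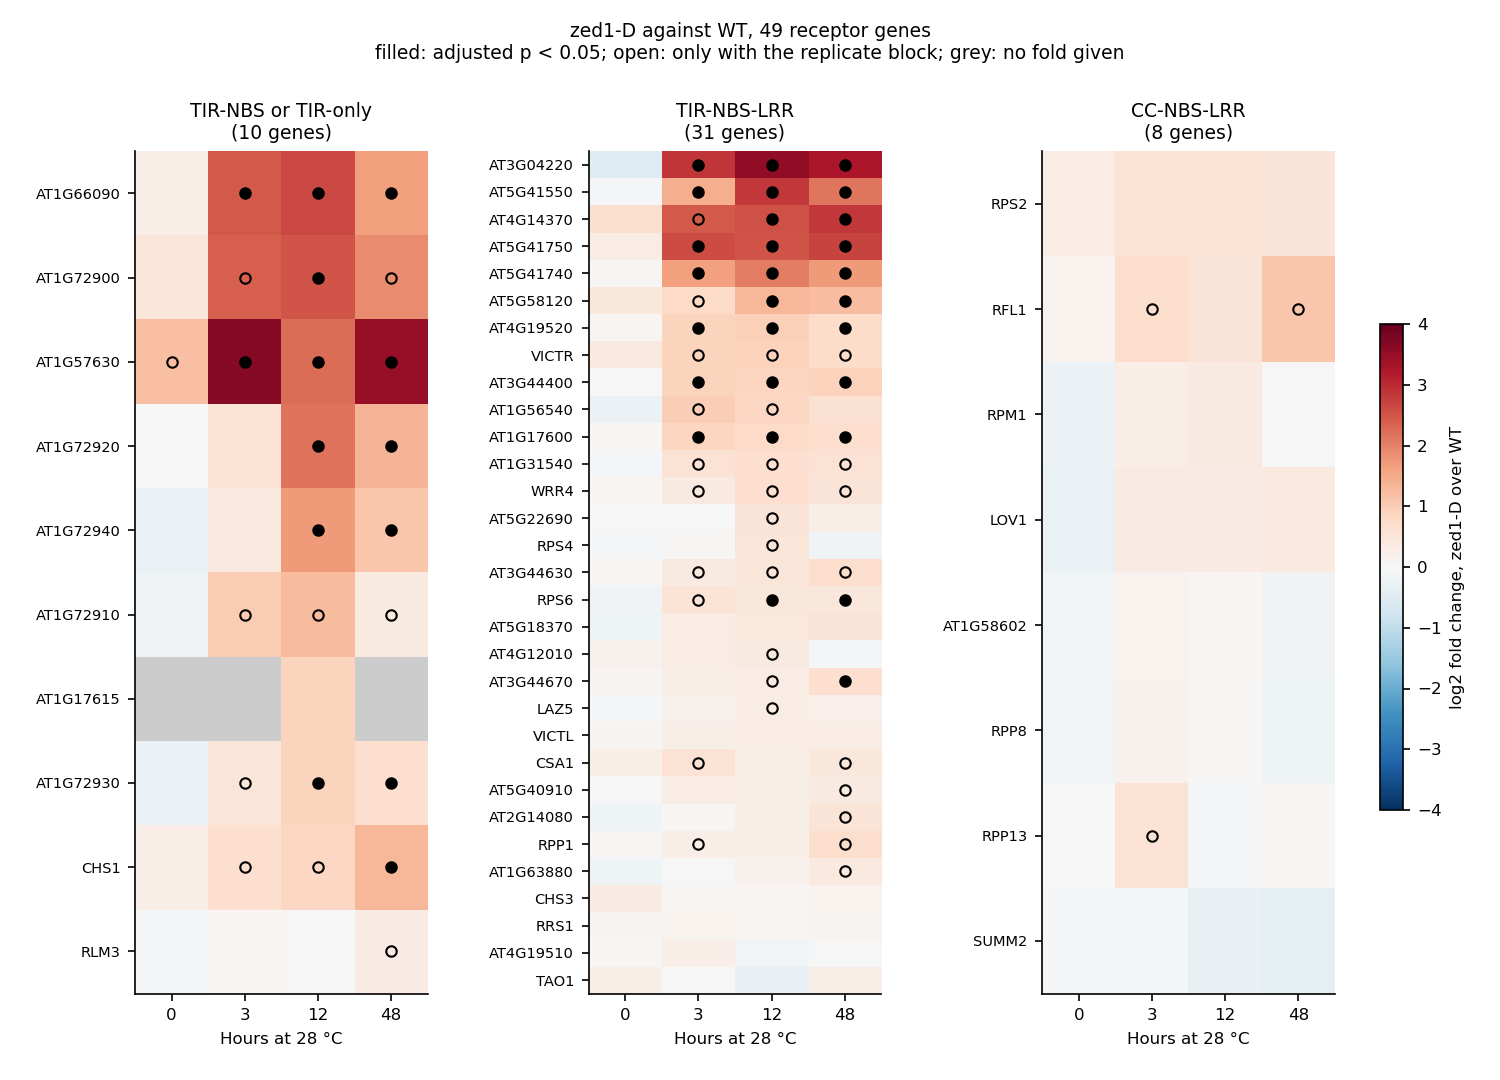
Colour gives the log2 fold change of zed1-D over WT for 49 receptor genes (vertical axis, sorted by the 12 h value within each domain class) at 0, 3, 12 and 48 h at 28 °C (horizontal axis). Filled dots mark an edgeR adjusted p under 0.05, open dots a call made with the replicate block alone, and grey cells a gene with too few reads for a fold. The filled dots lie in the TIR classes, with 0 in the CC-NBS-LRR panel.

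The counts of each domain class are given here beside the shares of all genes. Among the 31 TIR-NBS-LRR genes 7, 10 and 11 were higher in zed1-D at 3, 12 and 48 h (17, 20 and 20 with the block), with median log2 differences of 0.35, 0.48 and 0.51. Among the 10 truncated TIR genes 2, 6 and 6 were higher (6, 8 and 10 with the block). Leaving out AT1G17615, which had 0 to 23 reads in a library, the median of the other 9 was 0.66, 1.69 and 1.32. Among the 9 CC-NBS-LRR genes 0, 0 and 0 were higher (2, 0 and 1 with the block), with medians of 0.27, 0.32 and 0.09. The shares of all genes that were higher were 2.83%, 7.87% and 8.32%, or 9.07%, 19.8% and 22.1% with the block. With 9 genes and these shares, a count of 0 says little of the CC-NBS-LRR class. Whether the classes differ from each other was not tested.

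Of the 18 members higher in zed1-D at some hour, 9 were higher at 3, 12 and 48 h. They are the TIR-NBS-LRR genes AT3G04220, AT5G41750, AT5G41740, AT5G41550, AT3G44400, AT4G19520 and AT1G17600, the TIR-NBS gene AT1G66090 and the TIR-only gene AT1G57630. Another 6 were higher at 12 and 48 h, AT4G14370, AT5G58120, RPS6, AT1G72920, AT1G72930 and AT1G72940. AT1G72900 passed at 12 h, and CHS1 and AT3G44670 at 48 h.

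AT3G04220 (chr3:1108725-1112437, minus strand, TAIR10.1) had the largest fold among TIR-NBS-LRR genes. At 0 h it had 1.05 and 1.31 CPM in zed1-D against 1.68 and 1.71 in WT. At 3 h zed1-D had 3.44 and 5.49 CPM and WT 0.918 and 0.466. At 12 h zed1-D had 13.4 and 16.0 CPM against 1.08 and 1.35, and at 48 h 11.39 and 6.996 against 1.40 and 0.680. The zed1-D libraries lay below WT at 0 h and above WT, without overlap, at each later hour. The log2 fold change was 2.87 ± 0.46 at 3 h (edgeR adjusted p = 0.00401), 3.54 ± 0.38 at 12 h (adjusted p = 0.000127), a fold of 11.6, and 3.25 ± 0.41 at 48 h (adjusted p = 0.00033). Counts were low in WT, 4 to 18 reads a library, and omissions ended the 3 h call, with adjusted p up to 0.125 without WT R2.

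The tandem pair AT5G41740 and AT5G41750 moved together. AT5G41750 (chr5:16693832-16699028, plus strand) had 16.3 and 17.3 CPM in zed1-D against 12.3 and 14.8 in WT at 0 h, and 46.6 and 45.6 against 6.89 and 8.11 at 3 h. At 12 h it had 92.3 and 119 CPM against 16.8 and 20.3, and at 48 h 66.6 and 58.6 against 8.39 and 10.7. No zed1-D library overlapped a WT library at any hour. The log2 fold change was 2.60 ± 0.20, 2.50 ± 0.19 and 2.69 ± 0.19 at 3, 12 and 48 h (edgeR adjusted p = 2.55e-05, 1.38e-05 and 7.22e-06), and the call held with any library of the compared groups left out. The files list a length of 5865 bases for AT5G41750 in 1 library, zed1-D R1 at 12 h, and 4140 in the others. The part of this in the values was not tested.

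AT5G41740 (chr5:16688626-16693119, plus strand) had 13.4 and 13.9 CPM in zed1-D against 13.1 and 13.6 in WT at 0 h. It had 20.8 and 25.7 against 7.35 and 7.46 at 3 h, 54.1 and 53.5 against 10.999 and 14.69 at 12 h, and 33.0 and 29.9 against 7.99 and 10.9 at 48 h. The groups overlapped at 0 h and at no later hour. Log2 fold changes were 1.65 ± 0.20, 2.05 ± 0.19 and 1.71 ± 0.19 (edgeR adjusted p = 0.000522, 4.44e-05 and 0.000141), and it too passed in every omission. Of the 50-base windows in their annotated exons, 86.7% and 87.7% occur once in the genome for AT5G41740 and AT5G41750, so some reads of either may have been dropped by unique mapping.

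**Figure D2:**
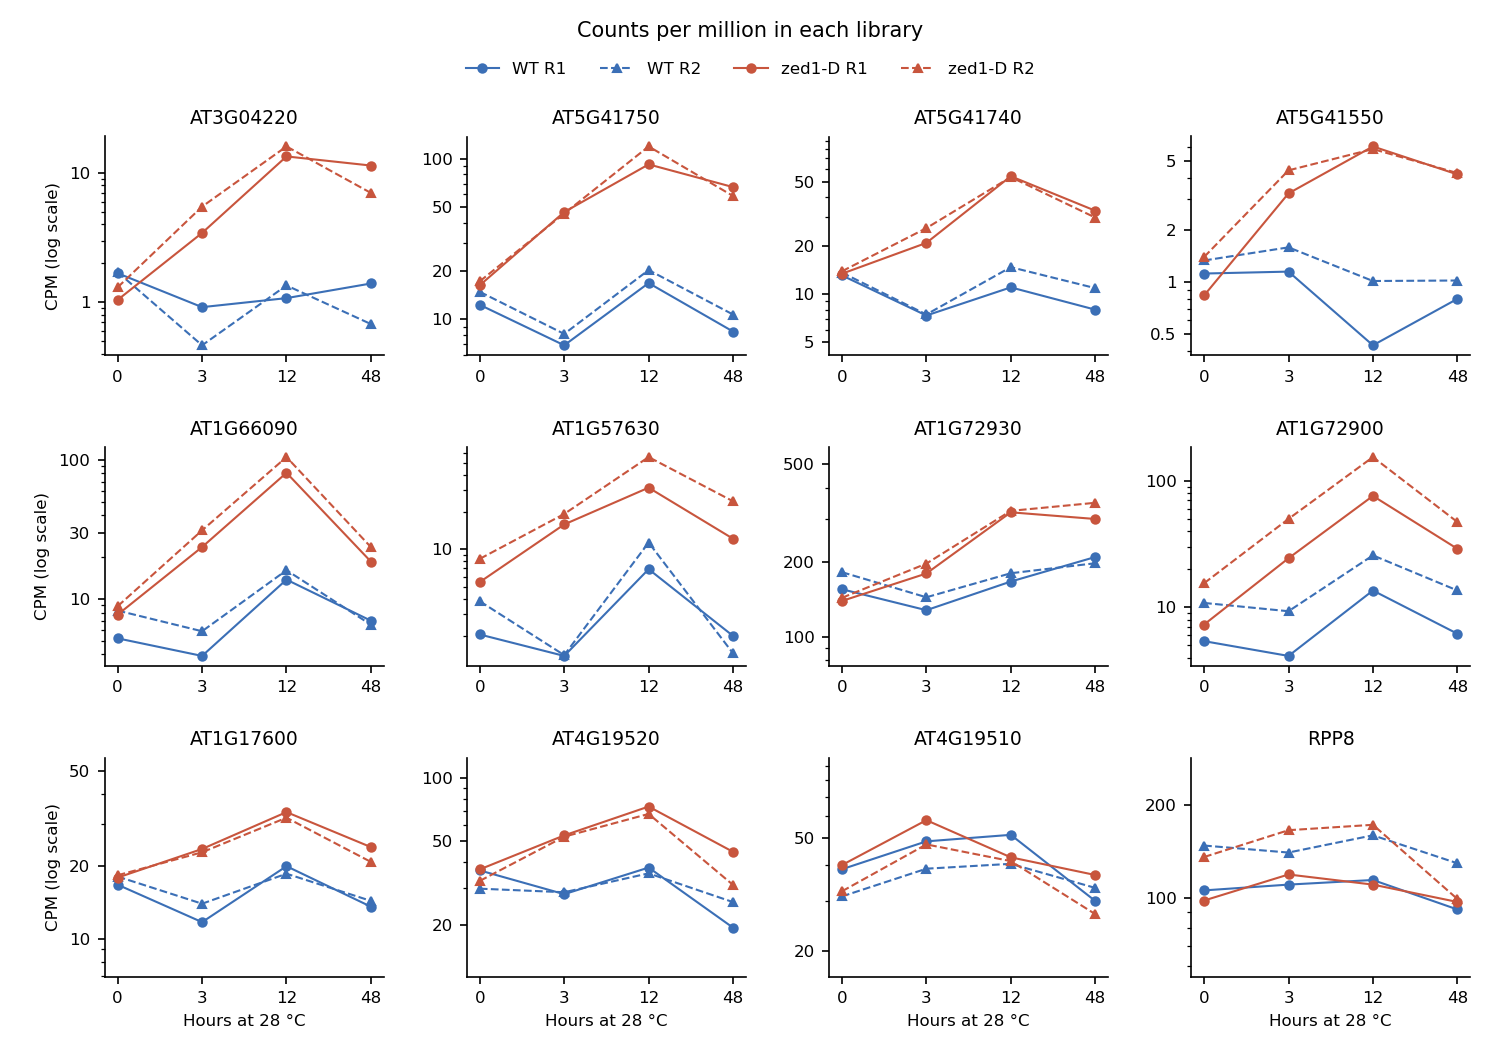
CPM on a log axis (vertical) at 0, 3, 12 and 48 h at 28 °C (horizontal) for 12 receptor genes, with WT in blue, zed1-D in red, R1 as circles and R2 as triangles. In AT5G41750 the zed1-D libraries reach 92.3 and 119 CPM at 12 h against 16.8 and 20.3 in WT, while the libraries of RPP8 and AT4G19510 overlap between genotypes.

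AT5G41550 (chr5:16617232-16620824, minus strand) had 0.836 and 1.39 CPM in zed1-D against 1.12 and 1.33 in WT at 0 h. It had 3.25 and 4.41 against 1.15 and 1.58 at 3 h, 6.05 and 5.85 against 0.431 and 1.01 at 12 h, and 4.18 and 4.25 against 0.799 and 1.02 at 48 h. From 3 h on the groups did not overlap. Fold changes on the log2 scale were 1.44 ± 0.33, 2.84 ± 0.34 and 2.15 ± 0.34 (edgeR adjusted p = 0.0395, 0.000299 and 0.00178). At 3 h each of the 4 omissions ended the call, with the highest adjusted p, 0.382, without zed1-D R2, and DESeq2 gave 0.107.

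AT4G14370 had 7.70 and 11.3 CPM in zed1-D against 1.08 and 1.94 in WT at 12 h, and 5.69 and 3.72 against 1.199 and 0.340 at 48 h. At 0 h the genotypes overlapped, with 0.418 and 2.44 CPM in zed1-D and 0.373 and 1.52 in WT. Its log2 fold change was 2.44 ± 0.68 at 3 h (edgeR adjusted p = 0.102, and 5.82e-05 with the block), 2.56 ± 0.60 at 12 h (0.0182) and 2.83 ± 0.73 at 48 h (0.0236). The 12 h call was lost at 0.122 without zed1-D R2 and the 48 h call at 0.239 without WT R2.

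AT5G58120 had 31.0 and 39.3 CPM in zed1-D against 13.8 and 14.1 in WT at 12 h, and 32.1 and 28.3 against 10.99 and 14.11 at 48 h. Its groups did not overlap at either hour, and both calls held in every omission. On the log2 scale its fold changes were 1.34 ± 0.20 and 1.25 ± 0.20 (edgeR adjusted p = 0.00112 and 0.00163).

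Smaller differences were seen in the other TIR-NBS-LRR genes that passed. RPS6, the receptor for the Pseudomonas effector HopA1, had 68.2 and 74.1 CPM in zed1-D against 53.7 and 49.9 in WT at 12 h, and 67.9 and 56.6 against 45.4 and 45.9 at 48 h. Its log2 fold change was 0.46 ± 0.13 at 12 h (edgeR adjusted p = 0.0450) and 0.45 ± 0.13 at 48 h (0.0394), each lost on leaving out single libraries, with adjusted p up to 0.256 without WT R2 at 12 h and 0.235 without zed1-D R1 at 48 h. AT3G44400, from the same region of chromosome 3 as RPP1 but not next to it, had 31.6 and 36.3 CPM against 20.3 and 17.5 at 12 h. For this gene the log2 fold change was 0.88 ± 0.17, 0.85 ± 0.17 and 0.93 ± 0.17 at 3, 12 and 48 h (edgeR adjusted p = 0.0171, 0.00692 and 0.00400), and it passed in every omission at 48 h but was lost at 3 h (0.169 without WT R1) and 12 h (0.0940 without WT R2).

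AT3G44670 had 86.2 and 59.6 CPM in zed1-D against 44.4 and 46.6 in WT at 48 h. Its log2 fold change there was 0.68 ± 0.17 (edgeR adjusted p = 0.0204, and 0.160 without zed1-D R1). RPP1, a downy mildew receptor of the same region, had 80.3 and 50.7 CPM against 44.2 and 36.4 at 48 h, and passed with the block alone (adjusted p = 0.154, and 4.36e-06 blocked). For RPP1 55.7% and for AT3G44670 63.4% of exon 50-base windows are unique in the genome, so their counts are uncertain.

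Members called with the block alone at all 3 hours included AT1G31540 and WRR4, a gene of white rust resistance. AT1G31540 had 88.0 and 113 CPM in zed1-D against 56.5 and 68.4 in WT at 12 h, a log2 difference of 0.68 ± 0.23 (edgeR adjusted p = 0.102, and 5.42e-07 blocked). WRR4 had 49.2 and 64.7 CPM against 33.4 and 37.9, a log2 difference of 0.67 ± 0.21 (adjusted p = 0.0696, and 3.59e-06 blocked). In neither gene did the genotypes overlap at 12 h.

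Among the truncated TIR genes, AT1G66090 (chr1:24602033-24604763, plus strand), with a TIR and a nucleotide-binding domain, had 7.73 and 8.89 CPM in zed1-D against 5.22 and 8.27 in WT at 0 h. It had 23.7 and 31.2 against 3.90 and 5.87 at 3 h, 80.9 and 105 against 13.8 and 16.1 at 12 h, and 18.6 and 23.6 against 6.99 and 6.55 at 48 h. The genotypes overlapped at 0 h and were apart at the later hours. The log2 fold change was 2.44 ± 0.28, 2.63 ± 0.26 and 1.65 ± 0.27 (edgeR adjusted p = 0.000354, 6.55e-05 and 0.00179), and the calls held in every omission.

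AT1G57630 (chr1:21345445-21346157, plus strand) had 15.8 and 19.2 CPM in zed1-D against 1.38 and 1.40 in WT at 3 h. It had 31.4 and 55.4 against 6.90 and 11.3 at 12 h, and 12.1 and 24.4 against 2.00 and 1.45 at 48 h. zed1-D was above WT without overlap at each hour, 0 h included. The log2 fold change was 3.65 ± 0.50, 2.22 ± 0.40 and 3.48 ± 0.48 (edgeR adjusted p = 0.00149, 0.00430 and 0.000691), and the 12 h call was lost at 0.0543 without WT R1. The files list a length of 519 bases for this gene in 10 libraries and 4440 in 6. The 6 are WT R2 and zed1-D R1 at 0 h, zed1-D R1 at 3 h, and WT R2, zed1-D R1 and zed1-D R2 at 12 h. The listed length thus differs between the compared groups, and its part in the values was not tested. At 48 h all 4 libraries list 519.

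CHS1, a TIR-NBS gene named for the chilling sensitivity of its mutant, had 15.6 and 16.8 CPM in zed1-D against 4.60 and 7.99 in WT at 48 h. Its log2 fold change was 1.32 ± 0.27 (edgeR adjusted p = 0.00774, and 0.0526 without zed1-D R2), after 0.66 ± 0.28 at 3 h (0.4, and 0.0236 blocked) and 0.82 ± 0.27 at 12 h (0.0941, and 0.000163 blocked). RLM3 had 192 and 187 CPM against 138 and 166 at 48 h, and passed there with the block alone. AT1G17615 had at most 23 reads in a library, and at 48 h 1 and 4 reads in zed1-D against 0 and 0 in WT, too few for a fold. With this gene at the bound that 3 reads in WT would give, the median of the 10 truncated genes at 48 h is 1.22, and that of all 50 members stays 0.51.

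None of the 9 CC-NBS-LRR genes of the list, which leaves out ZAR1, passed between genotypes without the block. With so few genes and the shares of all genes given above, this says little of the class. The log2 differences of the 9 genes ran from -0.16 to 0.71 at 3 h, from -0.30 to 0.54 at 12 h and from -0.37 to 1.11 at 48 h. Some are shown here for their known roles. RPM1, another guard of RIN4, had 10.3 and 16.2 CPM in zed1-D against 11.6 and 9.54 in WT at 12 h, and the genotypes overlapped. RPP8 had 110 and 173 CPM against 114 and 160, with R2 above R1 in both genotypes. SUMM2, which monitors a MAP kinase cascade, had 6.97 and 12.5 CPM against 8.63 and 15.3. These 3 did not pass at any hour, with or without the block.

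With the block, RPP13, a downy mildew receptor, passed at 3 h, with 66.6 and 103 CPM in zed1-D against 46.8 and 66.3 in WT (log2 difference 0.58 ± 0.34, edgeR adjusted p = 0.713, and 7.61e-05 blocked). RFL1 passed with the block at 3 h (0.0395) and 48 h (0.00132). RFL1 overlaps an opposite-strand gene over 89.3% of its exon bases and RPP13 over 33.0%, so neither count is certain.

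Several members are neighbours in the genome, which lets adjacent receptor genes be compared under the same libraries. On chromosome 1, AT1G72900, AT1G72910, AT1G72920, AT1G72930 and AT1G72940 form a tandem array of TIR genes on the plus strand, with 1523, 706, 30 and 1516 bases between them. At 12 h AT1G72900 had 75.9 and 154 CPM in zed1-D against 13.6 and 25.8 in WT. AT1G72910 had 65.5 and 110 CPM against 27.2 and 45.4. AT1G72920 had 18.0 and 26.9 CPM against 3.88 and 5.91. AT1G72930 had 319 and 324 CPM against 167 and 181, and AT1G72940 had 17.2 and 19.9 against 4.31 and 6.84. In all 5 genes the zed1-D libraries at 12 h lay above the WT libraries, and the share of all genes that do so was not computed.

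The 12 h log2 fold change was 2.52 ± 0.59 for AT1G72900 (edgeR adjusted p = 0.0194), 2.16 ± 0.40 for AT1G72920 (0.00484), 0.89 ± 0.14 for AT1G72930 (0.00152) and 1.69 ± 0.29 for AT1G72940 (0.00307). That of AT1G72910 was 1.26 ± 0.51 (0.182, and 2.80e-13 blocked). At 3 h AT1G72900 had the highest value of the array, 2.40 ± 0.62 (0.0745, and 4.03e-16 blocked), against 0.39 to 1.02 in the other four. At 48 h AT1G72920, AT1G72930 and AT1G72940 passed with 1.36 ± 0.39, 0.67 ± 0.14 and 1.11 ± 0.28 (0.0370, 0.00716 and 0.0226). AT1G72900 and AT1G72910 passed there with the block alone. R2 lay above R1 in all 8 groups for AT1G72900, AT1G72910 and AT1G72920, by 0.97, 0.83 and 0.57 on the log2 scale on average. Omissions ended the calls of AT1G72900 at 12 h (up to 0.161 without WT R1), AT1G72920 at 12 h (0.0570 without WT R1) and 48 h (0.329 without zed1-D R2), and AT1G72930 and AT1G72940 at 48 h (0.0624 without WT R2 and 0.187 without zed1-D R2). Unique 50-base windows make up 73.8% of exon windows in AT1G72930, 77.2% in AT1G72910 and 82.1% in AT1G72920.

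**Figure D3:**
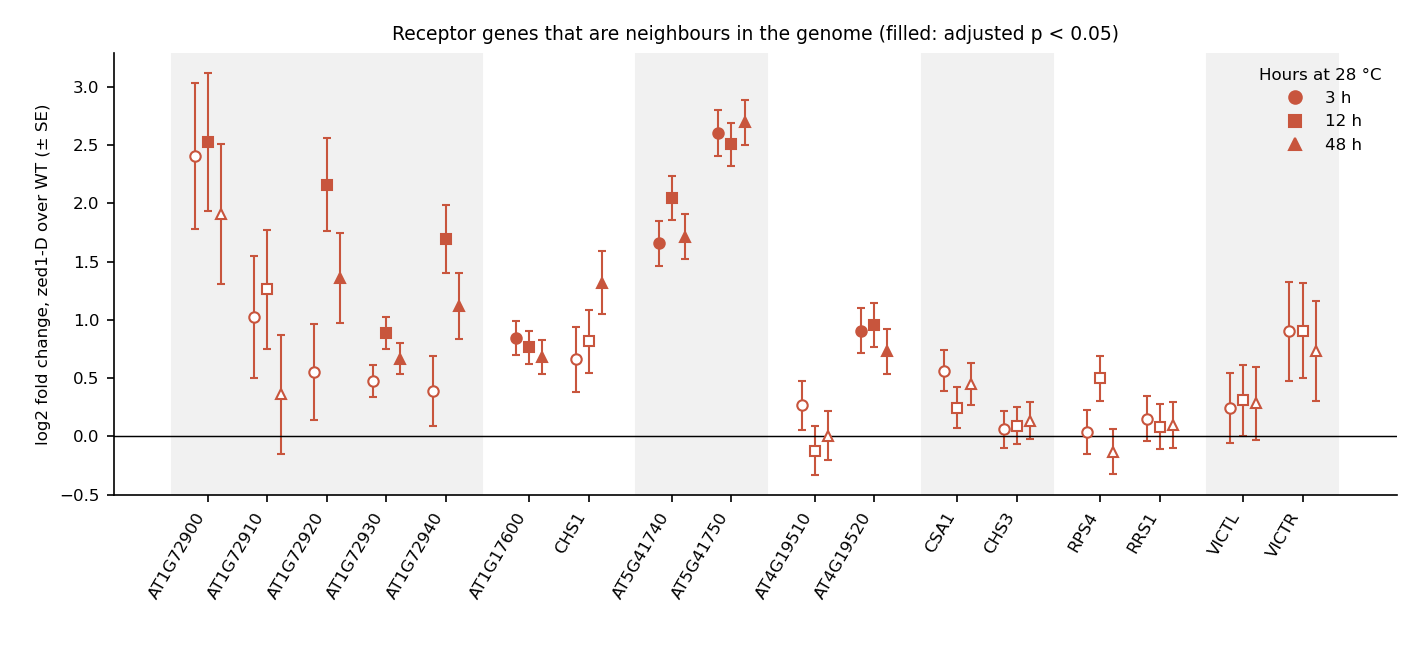
Log2 fold change of zed1-D over WT (vertical axis, ± SE) for receptor genes that lie next to each other (horizontal axis, neighbours in a common band), at 3 h (circles), 12 h (squares) and 48 h (triangles), with filled symbols for an edgeR adjusted p under 0.05. AT5G41740 and AT5G41750 have 3 filled symbols each, while AT4G19520 has 3 and its neighbour AT4G19510 has 0.

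The convergent neighbours AT4G19510 and AT4G19520 lie 232 bases apart on chromosome 4. AT4G19520 had 73.4 and 67.7 CPM in zed1-D against 37.5 and 35.2 in WT at 12 h, and its groups did not overlap. AT4G19510 had 42.7 and 41.4 CPM against 51.3 and 40.5, and its groups overlapped. The log2 fold change of AT4G19520 was 0.91 ± 0.19, 0.96 ± 0.19 and 0.73 ± 0.19 at 3, 12 and 48 h (edgeR adjusted p = 0.0265, 0.00777 and 0.0282). Omissions ended these calls, at up to 0.180 without WT R1, 0.0817 without WT R2 and 0.205 without zed1-D R1. That of AT4G19510 was 0.27 ± 0.21, -0.12 ± 0.21 and 0.00 ± 0.21 (adjusted p = 0.887, 0.876 and 0.994). The difference between the neighbours was not itself tested.

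AT1G17600 and CHS1 overlap on opposite strands of chromosome 1, over 48.3% of the exon bases of AT1G17600 and 90.5% of those of CHS1, so their counts may share reads. AT1G17600 had 33.8 and 32.0 CPM in zed1-D against 20.1 and 18.7 in WT at 12 h. Its log2 fold change was 0.85 ± 0.14, 0.77 ± 0.14 and 0.68 ± 0.14 at 3, 12 and 48 h (edgeR adjusted p = 0.00620, 0.00462 and 0.00881), lost at up to 0.0860 without WT R1, 0.0619 without WT R2 and 0.0613 without zed1-D R1.

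Of the neighbours RPS4 and RRS1, CSA1 and CHS3, and VICTL and VICTR, none passed without the block. RPS4, which detects a Pseudomonas effector together with RRS1, had 44.8 and 59.7 CPM in zed1-D against 34.5 and 39.5 in WT at 12 h (log2 difference 0.50 ± 0.19, edgeR adjusted p = 0.151, and 0.000212 blocked). RRS1, its divergent neighbour with a WRKY domain, had 31.7 and 28.2 CPM against 28.7 and 27.8 (0.08 ± 0.19, adjusted p = 0.919). CSA1 had 37.8 and 38.8 CPM against 33.2 and 31.4 (0.25 ± 0.17, 0.530), and it passed with the block at 3 h (0.00133) and 48 h (0.0322). Its partner CHS3, with a LIM domain, had 61.8 and 72.9 CPM against 59.5 and 66.8 (0.09 ± 0.16, 0.873). VICTR, known from the response to a synthetic immune elicitor, had 8.62 and 12.6 CPM against 4.10 and 6.92 (0.91 ± 0.40, 0.234, and 0.000219 blocked). Its neighbour VICTL had 21.6 and 33.3 CPM against 19.8 and 24.6 (0.31 ± 0.30, 0.710). Unique windows make up 33.8% of VICTR and 50.5% of VICTL, so these 2 are uncertain.

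Promoter sequences are shown for the neighbours that moved together, for the neighbours that did not, and for AT3G04220, to set their W-box content beside the values above. Each window is the 300 bases before the annotated transcript start in the RefSeq annotation of TAIR10.1, read 5′ to 3′ on the gene's strand. Capitals mark W-boxes, the sites of WRKY transcription factors, searched as TTGACC or TTGACT on both strands. The windows are chr5:16688326-16688625 for AT5G41740, chr5:16693532-16693831 for AT5G41750, chr4:10633319-10633618 for AT4G19510 (all plus strand), chr4:10647281-10647580 for AT4G19520 and chr3:1112438-1112737 for AT3G04220 (both minus strand).
AT5G41740: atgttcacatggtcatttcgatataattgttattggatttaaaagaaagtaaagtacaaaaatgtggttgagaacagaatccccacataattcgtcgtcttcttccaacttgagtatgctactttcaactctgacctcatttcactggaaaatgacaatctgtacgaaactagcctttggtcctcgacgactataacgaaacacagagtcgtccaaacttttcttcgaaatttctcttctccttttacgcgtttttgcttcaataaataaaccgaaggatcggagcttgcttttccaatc
AT5G41750: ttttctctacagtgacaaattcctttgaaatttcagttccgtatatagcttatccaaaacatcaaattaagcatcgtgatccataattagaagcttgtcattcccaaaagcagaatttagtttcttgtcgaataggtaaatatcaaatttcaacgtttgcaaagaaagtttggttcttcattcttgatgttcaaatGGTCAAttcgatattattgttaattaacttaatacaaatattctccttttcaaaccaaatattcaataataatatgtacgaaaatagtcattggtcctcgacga
AT4G19510: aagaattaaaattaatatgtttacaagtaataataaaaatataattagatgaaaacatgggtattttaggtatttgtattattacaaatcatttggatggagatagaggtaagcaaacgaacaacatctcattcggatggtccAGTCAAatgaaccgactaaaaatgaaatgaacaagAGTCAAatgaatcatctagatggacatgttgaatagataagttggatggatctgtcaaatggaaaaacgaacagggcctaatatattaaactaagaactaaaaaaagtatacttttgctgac
AT4G19520: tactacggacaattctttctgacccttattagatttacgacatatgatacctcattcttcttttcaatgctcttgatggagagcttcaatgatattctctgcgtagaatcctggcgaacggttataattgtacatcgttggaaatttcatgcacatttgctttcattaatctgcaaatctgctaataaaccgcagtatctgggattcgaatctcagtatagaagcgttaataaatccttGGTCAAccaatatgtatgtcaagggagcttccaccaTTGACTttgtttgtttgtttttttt
AT3G04220: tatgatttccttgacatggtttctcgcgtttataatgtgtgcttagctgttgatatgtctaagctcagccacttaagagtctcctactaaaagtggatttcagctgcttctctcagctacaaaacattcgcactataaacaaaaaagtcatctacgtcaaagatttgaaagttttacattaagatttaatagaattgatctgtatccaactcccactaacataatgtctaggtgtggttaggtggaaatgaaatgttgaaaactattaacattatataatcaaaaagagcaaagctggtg

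The windows of AT5G41740 and AT3G04220 hold 0 W-boxes, that of AT5G41750 holds 1, and those of AT4G19510 and AT4G19520 hold 2 each. AT4G19520, which passed between genotypes, and AT4G19510, which did not, thus hold the same number. Over the list, 22 of 50 windows (44%) hold a W-box, against 32.3% of the 27443 protein-coding genes. The share is 44.4% among the 18 members higher in zed1-D and 43.8% among the 32 others. The string GAANNTTC, the core of heat shock elements, is in 38.9% of the 18, 21.9% of the 32 and 11.5% of all windows. The string TGACG, bound by TGA factors, is in 38.9%, 21.9% and 21.3%, and the G-box CACGTG in 5.56%, 3.12% and 7.09%. All were searched on both strands, each on its own, so matches of different motifs may overlap. A match is a description of the letters and not a site. The tandem windows of AT5G41740 and AT5G41750 share a longest run of 14 bases, ttggtcctcgacga, where the median over all 1225 pairs of members is 8 and the highest 211, between RPP1 and AT3G44670. The window of AT5G41550 shares runs of 20 bases with AT5G41740 and 16 with AT5G41750.

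Within WT, the second comparison follows the receptor genes after the move to 28 °C. At 3 h 1 of 50 members rose (0.839% of all genes rose and 0.937% fell). At 12 h 0 rose and 0 fell (0.823% and 0.689% of all genes), with 13 at an unadjusted p under 0.05 and 2 higher in DESeq2. At 48 h again 0 rose and 0 fell (1.78% and 1.2%), with 8 at an unadjusted p under 0.05 and 0 in DESeq2. With the block 11 rose and 6 fell at 3 h (9.35% and 10.9% of all genes), 19 rose and 0 fell at 12 h (10.4% and 10.9%), and 5 rose and 8 fell at 48 h (14.1% and 15.2%). The median log2 change was 0.06, 0.39 and -0.13. Of the 50 members, 28 had their highest WT mean at 12 h and 25 their lowest at 48 h. These hours were not counted over all genes, so they are not shown to be particular to receptor genes.

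The member that rose in WT at 3 h was AT5G58120, from 6.90 and 9.32 CPM at 0 h to 16.3 and 19.0, a log2 change of 1.11 ± 0.21 (edgeR adjusted p = 0.0203). Each of the 4 omissions ended that call, with the highest adjusted p, 0.200, without WT R2 at 3 h. AT5G41740 and AT5G41750 went the other way, with log2 changes of -0.85 ± 0.20 each (adjusted p = 0.0614 and 0.0610, and 0.000498 and 0.000652 blocked). At 12 h AT1G66090 went from 5.22 and 8.27 to 13.8 and 16.1 CPM, 1.12 ± 0.27 on the log2 scale (0.0718, and 4.04e-06 blocked). At 48 h AT1G72920 had 6.19 and 8.16 CPM against 2.42 and 2.95 at 0 h, 1.41 ± 0.44 on the log2 scale (0.126, and 1.26e-05 blocked).

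In zed1-D, a share of the receptor genes rose after the move. At 3 h 7 of 50 rose (2.02% of all genes), at 12 h 25 rose (10.4%) and at 48 h 17 rose (10.7%), and 0 fell at any of the 3 hours, where 0.699%, 4.38% and 9.34% of all genes fell. With the block 35, 44 and 27 rose (12.8%, 24.4% and 26.5%), and 0, 0 and 5 fell (11.1%, 19.5% and 26.3%). The median log2 change was 0.55, 0.85 and 0.55. At 12 h 17 of 31 TIR-NBS-LRR genes, 8 of 10 truncated TIR genes and 0 of 9 CC-NBS-LRR genes rose, or 26, 10 and 8 with the block. Of the 50 members 36 had their highest zed1-D mean at 12 h and 35 their lowest at 0 h. The same was not counted over all genes, so a trait of receptor genes cannot be read from it.

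**Figure D4:**
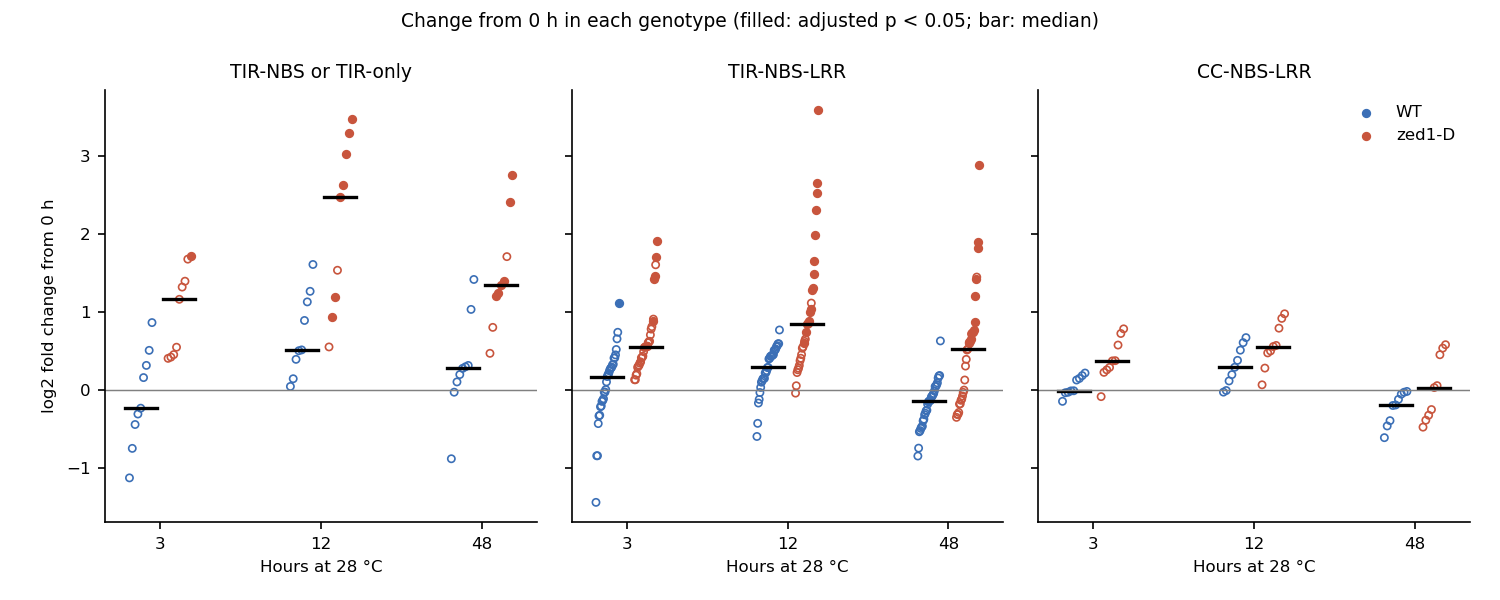
Log2 fold change from 0 h (vertical axis) at 3, 12 and 48 h at 28 °C (horizontal axis) for each receptor gene in WT (blue) and zed1-D (red), by domain class, with a black bar for the median and filled points for an edgeR adjusted p under 0.05. AT1G17615 is left out for low reads. In zed1-D at 12 h the medians are 0.84 for TIR-NBS-LRR, 2.47 for the 9 other truncated TIR genes and 0.55 for CC-NBS-LRR genes, against 0.29, 0.51 and 0.29 in WT.

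The largest rises in zed1-D at 3 h were in AT3G04220 (1.91 ± 0.40 on the log2 scale, edgeR adjusted p = 0.0301), AT1G66090 (1.72 ± 0.26, 0.00562) and AT5G41550 (1.70 ± 0.34, 0.0215). Single omissions ended these 3 calls, at up to 0.290 without zed1-D R2 at 3 h, 0.0761 without zed1-D R1 at 0 h and 0.224 without zed1-D R2 at 3 h. AT5G41750 rose by 1.45 ± 0.18 (0.00243) and was the 1 of the 7 that held in every omission. At 12 h the largest were AT3G04220 (3.59 ± 0.38, 0.000102), AT1G66090 (3.47 ± 0.27, 1.36e-05) and AT1G72900 (3.29 ± 0.62, 0.00406, and 0.0505 without zed1-D R1 at 0 h). At 48 h they were AT3G04220 (2.88 ± 0.39, 0.000491), AT1G72920 (2.75 ± 0.43, 0.00114) and AT1G72940 (2.41 ± 0.31, 0.000344). AT1G66090 had 18.6 and 23.6 CPM at 48 h after 80.9 and 105 at 12 h, against 7.73 and 8.89 at 0 h, while AT1G72930 stood at 300 and 349 CPM after 319 and 324.

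Receptor genes that rose in zed1-D at 12 h without passing against WT include RPS4 (0.99 ± 0.19, edgeR adjusted p = 0.00499), AT1G31540 (1.28 ± 0.24, 0.00358), AT1G56540 (1.48 ± 0.28, 0.00399), WRR4 (0.88 ± 0.21, 0.0152), LAZ5 (0.60 ± 0.16, 0.0225) and AT3G44630 (0.85 ± 0.24, 0.0356). LAZ5 is the receptor whose activity causes cell death in the acd11 mutant. It had 31.2 and 34.0 CPM at 12 h against 21.9 and 21.1 at 0 h. Single omissions ended all 6 calls, at up to 0.0656, 0.0536, 0.0744, 0.144, 0.153 and 0.219 in that order, without zed1-D R1 at 0 h for RPS4 and AT1G31540, without zed1-D R2 at 0 h for AT1G56540 and AT3G44630, and without zed1-D R2 at 12 h for WRR4 and LAZ5. At 48 h members below their 0 h level passed with the block alone, among them AT1G58602 at -0.48 ± 0.28 (0.281, and 0.000110 blocked), CHS3 at -0.29 ± 0.16 (0.237, and 0.00934) and RRS1 at -0.32 ± 0.20 (0.307, and 0.0325).

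The third comparison asks whether the genotype difference at each hour exceeded that at 0 h. It was larger for 4 of 50 members at 3 h (1.03% of all genes), 7 at 12 h (2.98%) and 5 at 48 h (2.52%), and smaller for 0 at each hour, where 0.0362%, 0.269% and 1.18% of all genes were smaller. With the block it was larger for 14, 21 and 26 (4.31%, 12.9% and 13.2%), and smaller for 0 (1.35%, 7.24% and 14.0%). The genes are AT5G41750, AT5G41740 and AT3G04220 at all 3 hours, AT1G66090 at 3 and 12 h, AT5G41550 and AT1G72930 at 12 and 48 h, and AT1G72940 at 12 h. For AT3G04220 the excess was 3.35 ± 0.65, 4.02 ± 0.59 and 3.73 ± 0.61 on the log2 scale (edgeR adjusted p = 0.0346, 0.00394 and 0.00580). It includes a 0 h difference, with zed1-D below WT, that did not pass. That difference rests on 5 and 15 reads in zed1-D and 9 and 18 in WT. AT1G57630, which was already apart at 0 h, had an excess of 2.27 ± 0.67 at 48 h (adjusted p = 0.101, and 1.19e-05 with the block).

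Each replicate number can also be read on its own. With 0.5 CPM added to each value, members above 0 in zed1-D over WT in both R1 and R2 numbered 20 of 50 at 0 h, 43 at 3 h, 42 at 12 h and 35 at 48 h. The median log2 ratio was 0.428 in R1 and 0.456 in R2 at 3 h, and 0.468 and 0.585 at 12 h. At 48 h it was 0.690 in R1 and 0.283 in R2, with 49 and 35 members above 0. The shares of all genes above 0 were not computed, so these counts have no background to be read against. AT4G19520 showed this spread, with a log2 ratio of 1.182 in R1 and 0.267 in R2 at 48 h.

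A list of 20 genes that work with these receptors, chosen with earlier results of these data known, was read beside them. The genes of this list with values below are those with the smallest p at 12 h, so they do not stand for the rest. Of the 20, 0 differed between genotypes at 0 h, and 7, 11 and 8 were higher in zed1-D at 3, 12 and 48 h, with 0 lower (14, 15 and 12 higher with the block, and 3 lower at 48 h). Of all genes 2.83%, 7.87% and 8.32% were higher and 0.233%, 1.82% and 6.24% lower. With the block 9.07%, 19.8% and 22.1% of all genes were higher, and 23.5% were lower at 48 h. DESeq2 called 1 of the 20 lower at 48 h. The median log2 difference was 0.40, 0.83 and 0.39. PAD4, which forms signalling complexes with EDS1 below TIR receptors, had 209 and 228 CPM in zed1-D against 43.6 and 44.0 in WT at 12 h, a log2 fold change of 2.32 ± 0.16 (edgeR adjusted p = 8.31e-06). SGT1A, a co-chaperone that stabilises NLR proteins, had 102 and 97.1 CPM against 35.4 and 32.8 (1.55 ± 0.12, 1.68e-05). The helper NLR genes ADR1 and ADR1-L2 had log2 fold changes of 1.16 ± 0.15 (0.000494) and 1.26 ± 0.16 (0.000409). Of 6 genes listed for roles in transcript control (EDM2, MOS1, RDR6, SGS3, DCL4 and TPR1), 0 differed between genotypes at any hour. At an unadjusted p under 0.05 there were 0, and DESeq2 called 0. With the block 2 were lower in zed1-D at 12 h and 2 at 48 h, where 15.3% and 23.5% of all genes were lower. With 6 genes and these shares of all genes, a count of 0 says little of the list. ZAR1, the CC-NBS-LRR receptor that works with ZED1, had 190 and 221 CPM against 111 and 128 at 3 h (0.79 ± 0.18, edgeR adjusted p = 0.0388). Its log2 difference was 0.71 ± 0.18 at 12 h (0.0277) and 0.21 ± 0.18 at 48 h (0.528, and 0.0917 blocked). SNC1, a TIR-NBS-LRR gene with a temperature-dependent output, had 176 and 182 CPM against 125 and 145 at 3 h (0.41 ± 0.14, 0.225, and 0.000513 blocked).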

How the data were processed

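RNA-seq read counts per gene of 16 libraries were analysed. Per the file headers, the deposited files hold a count of reads and an RPKM value per gene, made by the authors. The deposited RPKM values were checked against counts and lengths and used in no test. The submitters' processing notes name the build TAIR10. Which aligner and counter made the values, and whether counting used strand, is not given in the sources used here.

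Counts were fitted in edgeR 4.0.16 (R 4.3.3, limma 3.58.1) with TMM scaling, filterByExpr, 1 mean per group over all 16 libraries and quasi-likelihood tests, leaving 8 residual degrees of freedom. Tests are two-sided, with Benjamini-Hochberg adjustment over 19312 genes in each of 13 contrasts, with a threshold of 0.05. An interaction is the genotype difference at an hour minus that at 0 h. Depth was 4.74 to 11.39 M counts a library, so low members such as AT1G17615 rest on few reads, and a group at or under 3 summed reads was given no fold.

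Replicate numbers from the labels were taken as pairing the libraries because the deviations of same-numbered libraries correlated in all 28 pairs of groups (0.53 to 0.71, median 0.65). The blocked fit has 7 residual degrees of freedom. The common coefficient of variation was 22.6% without the block and 5.7% with it. Since the labels do not say what R1 and R2 are, blocked p-values may measure a technical spread. The alternatives were the block, DESeq2 1.42.0, RLE factors, no filter, the compared groups alone, thinning to the shallowest library and leaving out each library. The fitting script was tested on simulated data.

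All 52 loci matched the RefSeq annotation of TAIR10.1, which gave names, coordinates and the 300-base windows. Every kept member could be named; values per library are given for members past the threshold between genotypes, for the 3 largest time changes and for their neighbours, and further members were shown for known roles after their values were seen. The members and lists were chosen with earlier results of these data known. Of the members counted in the totals, 1 is not reported here on its own.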

Additional observations from a re-analysis of the deposited data

Results flagged for a closer look

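For 7 receptor genes the genotype difference after the move to 28 °C differed from that at 0 h by a test of the interaction (edgeR, Benjamini-Hochberg over all genes). All values are log2 differences, positive where zed1-D rose more than WT. AT3G04220 had 3.35 at 3 h, 4.02 at 12 h and 3.73 at 48 h (adjusted p = 0.0346, 0.00394 and 0.00580). AT5G41750 had 2.30, 2.20 and 2.39 (0.00282, 0.00131 and 0.000577), and AT5G41740 had 1.62, 2.02 and 1.68 (0.0143, 0.00215 and 0.00488). AT1G66090 had 2.16 at 3 h and 2.35 at 12 h (0.0215 and 0.00544). AT5G41550 had 2.90 at 12 h and 2.21 at 48 h (0.0115 and 0.0408), and AT1G72930 had 1.14 and 0.92 (0.00787 and 0.0227). AT1G72940 had 1.96 at 12 h (0.0359).

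Single libraries decided some of these. At 3 h the call was lost for AT1G66090 (up to 0.151 without WT R2 at 0 h), AT5G41740 (0.0789 without WT R2 at 3 h) and AT3G04220 (0.246 without WT R2 at 3 h). At 12 h it was lost for AT5G41550 (0.0969 without WT R2 at 0 h), AT1G72930 (0.0650 without WT R1 at 12 h) and AT1G72940 (0.133 without WT R1 at 12 h). At 48 h it was lost for AT5G41550 (0.228) and AT1G72930 (0.0957), both without WT R2 at 0 h. The call held in every omission for AT5G41750 at 3, 12 and 48 h, for AT5G41740 and AT3G04220 at 12 and 48 h, and for AT1G66090 at 12 h.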

How the results depend on the processing

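Of 108 calls of a member in a comparison, none changed direction in the alternatives run. DESeq2 kept 105, RLE factors 107, no filter 99, the compared groups alone 55, thinning 84 of 107 and the replicate block 108, and 53 held in every omission of a library. The replicate block rests on a pairing read from these same data. With it the members called numbered 1, 25, 28 and 31 between genotypes at 0, 3, 12 and 48 h. Over time they numbered 17, 19 and 13 in WT and 35, 44 and 32 in zed1-D. For the interaction they numbered 14, 21 and 26 at 3, 12 and 48 h. With the compared groups alone, which leaves fewer libraries to estimate the spread, they numbered 3, 10 and 10 between genotypes at 3, 12 and 48 h, 0 in WT at 3 h, 0, 15 and 11 in zed1-D, and 1, 4 and 3 for the interaction. DESeq2 called 4 in WT at 3 h and 2 at 12 h, and RLE factors 2 in WT at 3 h. Thinning left 3 in zed1-D at 3 h, and 2 and 3 for the interaction at 3 and 48 h. Why calls changed between these settings was not tested. Leaving out single libraries gave 0 calls between genotypes at 0 h, 5 to 6 at 3 h, 10 to 14 at 12 h and 11 to 15 at 48 h. It gave 0 in WT at 3, 12 and 48 h, 1 to 4, 16 to 22 and 11 to 15 in zed1-D, and 1 to 4, 5 to 7 and 3 to 4 for the interaction. RLE moved the median of all genes by at most 0.027 on the log2 scale. With 2 libraries a group, and R1 at about the depth that limits the low members, differences in genes with few reads may be missed.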
